A study of Rattus norvegicus with 24 samples.

Results

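The subject is the change in gene expression in the cerebellum of rat pups between postnatal day (PND) 7 and 14 while their mothers were dosed with Aroclor 1254, a commercial mixture of polychlorinated biphenyls. Members are the 6 arrays of dosed cerebellum among the 24 arrays of the series, 3 at PND7 and 3 at PND14. The change is the PND14 mean minus the PND7 mean of the deposited log2 expression values of each probe set. All animals were Long Evans pups labelled male. Their dams received 6 mg/kg/day of Aroclor 1254 by gavage in corn oil (2 ml/kg) from gestation day 6 onwards, and undosed dams received 0 mg/kg/day by the same route. The dosed arrays come from the litters of dams 12, 15 and 18, with a different pup at each age. Each array holds a whole dissected tissue and thus a mixture of cell types. For comparison, undosed cerebellum from the litters of dams 1, 7 and 13 and hippocampus from the litters of dams 12, 15 and 18 were measured at the same ages. The design asks how expression develops over these ages and whether exposure alters it.

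In the rat cerebellum, granule cell precursors keep dividing at the outer surface after birth in response to Sonic hedgehog from Purkinje cells. They then leave the cell cycle, migrate inward past Bergmann glia and form synapses as granule cells. Over the same period Purkinje cells extend their dendrites and oligodendrocytes begin to wrap axons with myelin, and thyroid hormone paces several of these steps.

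The 6 dosed cerebellum arrays had medians of 7.463 to 7.48 on the log2 scale. Correlations between group mates over all probe sets were 0.995 to 0.996 at PND7 and 0.985 to 0.993 at PND14, and correlations across the ages were 0.977 to 0.981. Xist, a transcript of the inactive X chromosome, was low (4.06 to 4.32) on all 12 dosed arrays, in accord with the male label. It was high on 2 of the undosed cerebellum arrays used, at 10.8 at PND14 (dam 1) and 10.5 at PND7 (dam 13). Those arrays enter the comparison with undosed pups and lend to the estimate of spread. The undosed PND14 array of dam 13 had a median of 7.911, correlated with every other array at 0.623 to 0.659, had Xist at 7.27 and was left out. Among the dosed PND14 arrays, that of dam 15 stood apart, and that of dam 12 had a 3′ minus 5′ hexokinase signal of 2.29 on the log2 scale, against 1.61 to 1.70 on the other 5 dosed cerebellum arrays. The part of this signal of RNA quality in the results was not tested. The Purkinje cell markers Pvalb, Calb1 and Pcp2 and the granule cell marker Gabra6 all passed the filter on low values in this tissue. The markers Gli1 and Atoh1 were not matched to a probe set by symbol and are not analysed here.

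Between PND7 and PND14, 1045 genes (14.6% of 7170 tested) rose and 1268 (17.7%) fell in dosed cerebellum. Over probe sets, limma called 3154 of 9868 (32.0%) at a Benjamini-Hochberg adjusted p under 0.05, of which 1503 (15.2%) were higher and 1651 (16.7%) lower at PND14. The rises were larger than the falls. 170 probe sets rose by 2-fold or more against 103 that fell by as much, and 22 rose by 4-fold or more against 0 that fell by as much. The 3 arrays of each age did not overlap in 41.0% of the probe sets tested. Many genes named below were picked for large changes, so lack of overlap in them is a description only. Residual spread was estimated from 11 cerebellum arrays, of which 5 are undosed, and p-values rest on 3 litters.

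Among called genes whose ages did not overlap, the largest rises belonged to genes of Purkinje cells, granule cells, synapses and myelin. Pvalb, which encodes the calcium buffer parvalbumin of Purkinje cells and inhibitory interneurons, was at 6.44, 6.50 and 6.57 at PND7 and 10.62, 10.05 and 10.91 at PND14 (dams 12, 15 and 18 in that order, here and throughout). It rose by 4.02 ± 0.18 (SE, adjusted p = 1.8e-07), or 16.2-fold. All 3 pups at PND14 lay far above all 3 at PND7. Gabra6, the alpha 6 subunit of the GABA-A receptor that marks mature granule cells, went from 6.58, 7.00 and 6.98 to 10.57, 9.14 and 10.61 and rose by 3.26 ± 0.31 (SE, adjusted p = 1.72e-05). The pup of dam 15 was lower than its group mates at PND14 but still above every PND7 pup. Mobp, a protein of compact myelin, rose by 2.92 ± 0.20 (SE, adjusted p = 2.74e-06) from 8.05, 7.88 and 7.64 to 10.84, 10.61 and 10.88, with no overlap between ages. Next came Synpr (synaptoporin of synaptic vesicles, 2.51 ± 0.29), Nptx1 (a secreted pentraxin that clusters AMPA receptors, 2.40 ± 0.25) and Grm4 (a presynaptic glutamate receptor of granule cells, 2.38 ± 0.41). The remaining genes among the 12 largest rises were Mog, Mal, Olfm3, Gabrd, Il16 and Atp2a3, with changes of 2.13 to 2.35. At PND7 Pvalb, Mog, Mal, Olfm3, Gabrd and Atp2a3 were below the median of their arrays. The filter on low values asked for 3 arrays, so a gene that was high only at PND14 could pass. The sizes of such rises rest on low PND7 values.

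The largest falls belonged mostly to genes of cell division. Knstrn, which encodes a spindle protein, was at 8.48, 8.48 and 8.48 at PND7 and 7.00, 6.18 and 6.66 at PND14, a change of -1.87 ± 0.18 (SE, adjusted p = 1.73e-05). Rprm, linked to arrest before mitosis, changed by -1.86 ± 0.17, and Cks2, Kif22, Cdk1, Mki67, Pimreg, Tacc3 and Ccnb2, which act in mitosis or mark dividing cells, by -1.84 to -1.68. Fam111a, a protease of replicating chromatin, and Acot1, an enzyme that splits acyl-CoA, changed by -1.78 ± 0.30 and -1.66 ± 0.20. Tnc, the matrix protein tenascin C of immature glia, was at 10.67, 10.39 and 10.55 at PND7 and 9.51, 7.91 and 8.98 at PND14 and changed by -1.74 ± 0.29 (SE, adjusted p = 0.000796). Lack of overlap between ages was a condition for being picked among these 12 falls, as among the 12 rises, and is no result. In each of the 12 falls the pup of dam 15 was the lowest.

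**Figure D1:**
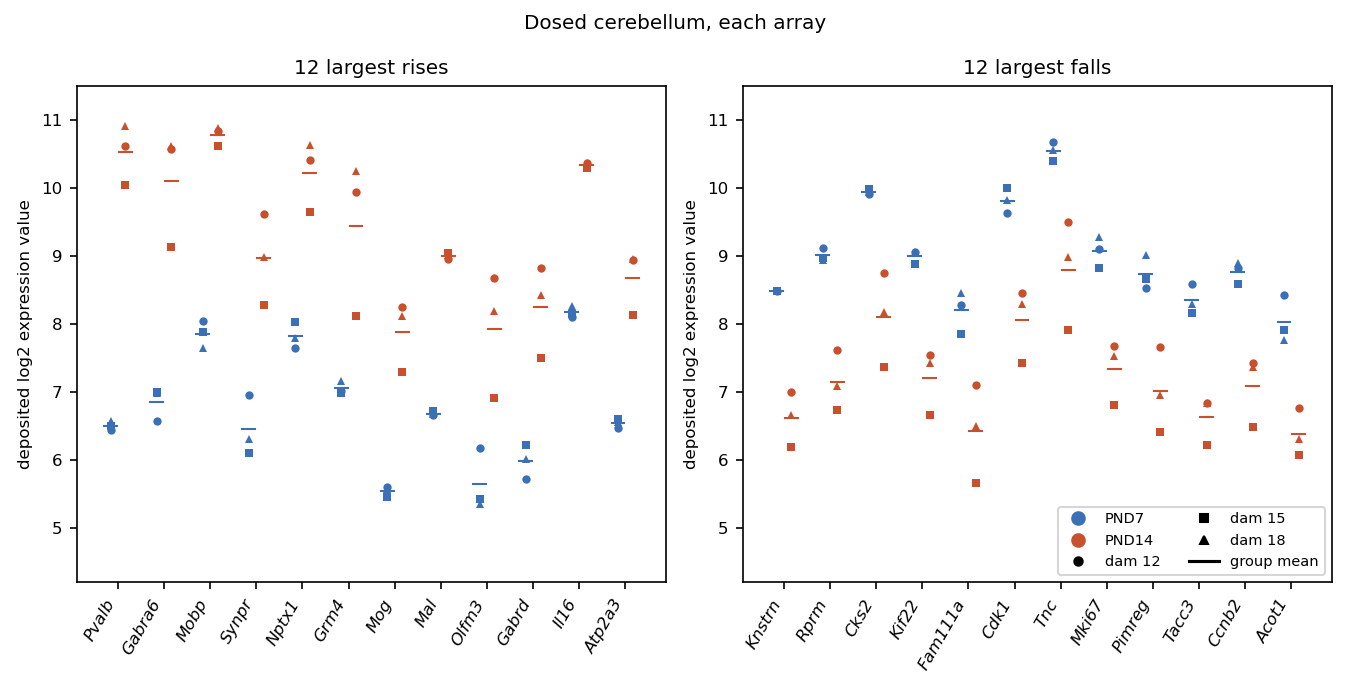
Deposited log2 expression values on each of the 6 arrays of dosed cerebellum for the 12 genes with the largest rise (left) and the 12 with the largest fall (right) from PND7 (blue) to PND14 (red). They were picked among called genes whose ages did not overlap. Symbols give the dam, short lines the group means; the square of dam 15 at PND14 is the lowest of its group for all 12 falls and for most of the rises.

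Genes of the cell cycle fell together. All 45 of the 45 listed genes that passed the filter on low values (52 are on the array) were called lower, against 17.7% of all genes tested, with a median change of -1.09 beside -0.02 over all genes tested. The smallest of these falls was in Stmn1, a tubulin-binding protein (-0.26, named after its value was seen), and the largest in Cks2. Cdk1, the kinase that starts mitosis, was at 9.63, 9.99 and 9.82 at PND7 and 8.45, 7.42 and 8.30 at PND14 and changed by -1.76 ± 0.21 (SE, adjusted p = 8.49e-05). Mki67, a chromosome surface protein of dividing cells, went from 9.11, 8.83 and 9.28 to 7.68, 6.81 and 7.52 and changed by -1.73 ± 0.21 (SE, adjusted p = 9.72e-05). For both genes the ages did not overlap, as in 44 of the 45 genes, beside 41.0% of all probe sets tested. The pup of dam 15 was the lowest at PND14 for both. Cks2, a subunit of mitotic kinases, was at 9.91, 9.98 and 9.95 and then 8.75, 7.37 and 8.18, with a change of -1.84 ± 0.25 (SE, adjusted p = 0.000206). Kif22, a kinesin that moves chromosomes, changed by -1.80 ± 0.20 (SE, adjusted p = 5.43e-05), Top2a, which untangles DNA, by -1.40 ± 0.19, and the G1 cyclin Ccnd1 by -1.08 ± 0.14. Averaged over the 52 listed genes on the array, the log2 level was 8.80 to 8.85 on the PND7 arrays and 8.00, 7.48 and 7.83 at PND14. Without the PND14 pup of dam 15 the median change was -0.97. In these bulk samples, fewer cells of a type and less RNA per cell cannot be told apart.

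The promoters of the 4 cell cycle genes with the largest change are shown because many mitotic genes share the CCAAT box and the CHR element TTTGAA near the start site. The sequences are those of RefSeq on the build GRCr8, from 250 bases before to 50 bases after the start, and capitals mark CCAAT and TTTGAA on either strand (ATTGG and TTCAAA on the other).
Kif22 (chr1:191080829-191081128, minus strand): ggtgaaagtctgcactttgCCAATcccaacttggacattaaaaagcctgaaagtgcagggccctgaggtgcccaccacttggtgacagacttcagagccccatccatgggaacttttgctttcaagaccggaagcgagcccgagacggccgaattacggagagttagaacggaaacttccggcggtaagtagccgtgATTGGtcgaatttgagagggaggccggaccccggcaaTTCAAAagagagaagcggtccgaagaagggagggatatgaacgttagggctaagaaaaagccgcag
Mki67 (chr1:199952544-199952843, minus strand): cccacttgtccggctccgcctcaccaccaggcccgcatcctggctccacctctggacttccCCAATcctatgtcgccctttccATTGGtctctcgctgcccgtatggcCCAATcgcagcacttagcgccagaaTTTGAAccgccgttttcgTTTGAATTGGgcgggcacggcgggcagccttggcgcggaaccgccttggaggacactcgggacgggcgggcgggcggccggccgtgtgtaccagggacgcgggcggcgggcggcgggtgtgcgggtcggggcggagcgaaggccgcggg
Cks2 (chr17:13727470-13727769, minus strand): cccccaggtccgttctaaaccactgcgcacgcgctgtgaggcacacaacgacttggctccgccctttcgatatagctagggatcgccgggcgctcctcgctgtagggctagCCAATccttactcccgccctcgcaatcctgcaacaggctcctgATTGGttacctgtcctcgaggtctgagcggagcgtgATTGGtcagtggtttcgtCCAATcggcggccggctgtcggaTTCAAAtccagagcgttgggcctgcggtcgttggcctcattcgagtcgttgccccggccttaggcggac
Cdk1 (chr20:19265043-19265342, plus strand): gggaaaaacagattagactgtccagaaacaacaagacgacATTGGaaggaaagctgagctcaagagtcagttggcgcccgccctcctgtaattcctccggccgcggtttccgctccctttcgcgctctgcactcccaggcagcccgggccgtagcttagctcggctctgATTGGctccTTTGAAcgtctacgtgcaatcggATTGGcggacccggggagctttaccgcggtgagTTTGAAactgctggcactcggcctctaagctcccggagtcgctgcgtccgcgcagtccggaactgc

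Each of these 4 promoters holds both motifs, and in Mki67 a TTTGAA and an ATTGG share bases. The CCAAT box was in 29 of the 47 promoters of 45 listed genes on the array (61.7%), against 37.5% of all 33469 promoters and 37.9% of those of genes tested. TTTGAA was in 18 of the 47 (38.3%), against 18.3% and 11.1%. Both were in 27.7%, against 7.41% and 4.75%. These are counts of letters in a window and were not tested.

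Granule cell precursor genes fell as well. Of 12 listed genes that passed the filter, 9 were called lower (75.0%, beside 17.7% of all genes) and 1 higher (8.33%, beside 14.6%). The median change was -0.71. Mycn, a transcription factor that Sonic hedgehog induces in dividing precursors, was at 9.74, 9.93 and 10.06 at PND7 and 9.22, 9.27 and 8.67 at PND14 and changed by -0.85 ± 0.14 (SE, adjusted p = 0.000904). Ccnd2, the cyclin of these precursors, went from 11.04, 11.12 and 10.98 to 10.10, 10.11 and 10.15, a change of -0.92 ± 0.07 (SE, adjusted p = 5.71e-06). The replicates of Ccnd2 were tight and the ages did not overlap. Sfrp1, a secreted Wnt antagonist, changed by -1.02 ± 0.14 and Id3, an inhibitor of differentiation factors, by -0.98 ± 0.16. The called rise was that of Zic1, a zinc finger factor of the granule lineage (0.55 ± 0.18, adjusted p = 0.0351, named after its value was seen). Without PND14 of dam 15 or 18, or PND7 of dam 12 or 15, the list held 0 called rises. Within the Sonic hedgehog, Wnt, Notch and BMP pathways, 15 of 34 genes were called lower (44.1%, beside 17.7% of all genes), with a median of -0.25. Rises were called in 1 (2.94%, beside 14.6%), and in 3 without the PND14 pup of dam 15. The Wnt antagonist Sfrp2 changed by -1.16 ± 0.16 (SE, adjusted p = 0.000257) and the receptor Notch1 by -0.98 ± 0.10 (SE, adjusted p = 3.57e-05).

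Genes of young, migrating granule neurons gave a mixed picture. Of 22 that passed, 6 were called lower (27.3%, beside 17.7% of all genes) and 14 not called, with a median of -0.13. Rises were called in 2 (9.09%, beside 14.6% of all genes), and in 1 without the PND7 pup of dam 12. Cxcr4 is in this list although it is the chemokine receptor that holds precursors under the meninges. It was at 10.03, 9.73 and 9.94 at PND7 and 9.05, 8.49 and 8.85 at PND14 and changed by -1.10 ± 0.13 (SE, adjusted p = 6.41e-05). Dpysl3 and Dpysl5, proteins of growth cones, changed by -1.01 ± 0.20 and -0.86 ± 0.07, and the neuronal tubulin Tubb3 by -0.33 ± 0.08. Dclk1, a microtubule kinase, changed by -0.85 ± 0.19, but its 2 other probe sets gave 0.04 and 0.10. Neurod1, a differentiation factor that granule neurons keep, rose by 0.42 ± 0.09 (SE, adjusted p = 0.00464). Dcx, doublecortin of migrating neurons, was at 10.99, 10.91 and 10.98 at PND7 and 10.81, 10.99 and 10.57 at PND14, a change of -0.17 ± 0.10 (adjusted p = 0.239). Without the PND14 pup of dam 15 Dcx fell by 0.27 (adjusted p = 0.0424), so whether it was called depended on that pup. Cntn2, Gap43 and Stmn2 changed by -0.03 ± 0.23, -0.19 ± 0.14 and 0.16 ± 0.08, and none of these was called.

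Genes of mature granule cells rose. Of 23 that passed, 17 were called higher, against 14.6% of all genes tested, and 1 lower, with a median of 0.83. Slc17a7, the vesicular glutamate transporter of parallel fibres, was at 8.92, 9.26 and 9.16 at PND7 and 11.05, 10.38 and 11.16 at PND14 and rose by 1.75 ± 0.18 (SE, adjusted p = 2.59e-05). Fat2, a protocadherin of granule cell axons, went from 7.30, 7.49 and 7.70 to 9.73, 9.04 and 9.73 and rose by 2.00 ± 0.18 (SE, adjusted p = 1.13e-05). Gabrd, the delta subunit that pairs with alpha 6 outside synapses, went from 5.72, 6.21 and 6.02 to 8.83, 7.49 and 8.43 and rose by 2.26 ± 0.28 (SE, adjusted p = 0.000102). For all these genes the ages did not overlap and dam 15 had the lowest PND14 value. Over the list 18 of 23 did not overlap, beside 41.0% of all probe sets tested. Grm4 was at 7.01, 6.98 and 7.16 and then 9.94, 8.11 and 10.26, so that its change of 2.38 became 3.05 without dam 15. The gene called lower was Nrgn, neurogranin of forebrain neurons (-0.58, named after its value was seen).

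NMDA and other glutamate receptors changed unequally. Grin2c, the NMDA receptor subunit of mature granule cells, was at 8.00, 7.91 and 8.00 at PND7 and 10.24, 8.89 and 10.33 at PND14 and rose by 1.85 ± 0.28 (SE, adjusted p = 0.000433). Grin2b and Grin2a, subunits of earlier and broader expression, changed by -0.08 ± 0.13 and 0.10 ± 0.10 and were not called. Slc17a6, the vesicular glutamate transporter of immature granule cells and climbing fibres, was at 9.32, 8.33 and 8.71 and then 7.97, 8.84 and 8.03, a change of -0.51 ± 0.26 (adjusted p = 0.155). It fell by 0.79 (adjusted p = 0.0152) without the PND14 pup of dam 15, whose value lay within the PND7 range. Over the list, 11 of 29 genes were called higher (37.9%, beside 14.6% of all genes) and 2 lower (6.9%, beside 17.7%), with a median of 0.25.

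GABA and glycine genes rose or were not called. Of 19 that passed, 12 were called higher (63.2%, beside 14.6% of all genes) and 0 lower (beside 17.7%), with a median of 0.41. Gabrb2, a beta subunit, rose by 1.33 ± 0.13 (SE, adjusted p = 2.59e-05) from 8.90, 8.54 and 8.51 to 10.20, 9.74 and 10.01. The chloride exporter Slc12a5, which makes GABA inhibitory, was at 10.87, 10.54 and 10.71 at PND7 and 11.63, 11.27 and 11.70 at PND14 and rose by 0.83 ± 0.12 (SE, adjusted p = 0.000308). The chloride importer Slc12a2 rose too, by 0.73 ± 0.08 (SE, adjusted p = 5.6e-05). Gad1, which makes GABA, rose by 0.53 ± 0.09 (SE, adjusted p = 0.000749), while its other probe set, at 0.19, was not called. Dam as a block gave 1 lower call in this list.

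Purkinje cell genes rose in 13 of 16 cases (81.2%, beside 14.6% of all genes) and fell in 1 (6.25%, beside 17.7%), with a median of 0.62. Pcp2, a modulator of G protein signalling specific to Purkinje cells in this tissue, was at 10.97, 11.07 and 11.06 at PND7 and 12.34, 12.25 and 12.18 at PND14 and rose by 1.23 ± 0.10 (SE, adjusted p = 7.2e-06). The 3 pups of each age were close and the ages did not overlap. Slc1a6, the glutamate transporter on Purkinje cell spines, went from 8.66, 8.54 and 8.53 to 10.34, 10.39 and 10.45 and rose by 1.81 ± 0.11 (SE, adjusted p = 2.32e-06). Calb1, calbindin, went from 11.22, 11.19 and 11.17 to 11.72, 11.91 and 11.67 and rose by 0.57 ± 0.08 (SE, adjusted p = 0.000208). Atp2a3, a calcium pump of the endoplasmic reticulum, was at 6.47, 6.60 and 6.55 and then 8.94, 8.12 and 8.96 and rose by 2.13 ± 0.19 (SE, adjusted p = 1.32e-05); another of its probe sets, which did not pass the filter, changed by 0.44. Aldoc, the aldolase that marks zebrin-positive Purkinje cells and is also made by astrocytes, rose by 1.28 ± 0.09 (SE, adjusted p = 3.72e-06). The gene called lower was Lhx1, a transcription factor of early Purkinje cells (-0.36, named after its value was seen), and the list held 0 called falls without the PND14 pup of dam 12 or the PND7 pup of dam 15 or 18.

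Interneuron genes were called higher in 5 of 13 cases (38.5%, beside 14.6% of all genes) and lower in 1 (7.69%, beside 17.7%), with a median of 0.07. Kcnc1, the fast potassium channel Kv3.1, was at 8.83, 8.61 and 8.95 at PND7 and 10.73, 9.46 and 10.63 at PND14 and rose by 1.48 ± 0.27 (SE, adjusted p = 0.00134). Grm2, a glutamate receptor of Golgi cells, fell by 0.62 ± 0.10 (adjusted p = 0.000827). The count of rises was 3 with dam as a block, and 3 without the PND14 pup of dam 12 or the PND7 pup of dam 18.

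**Figure D2:**
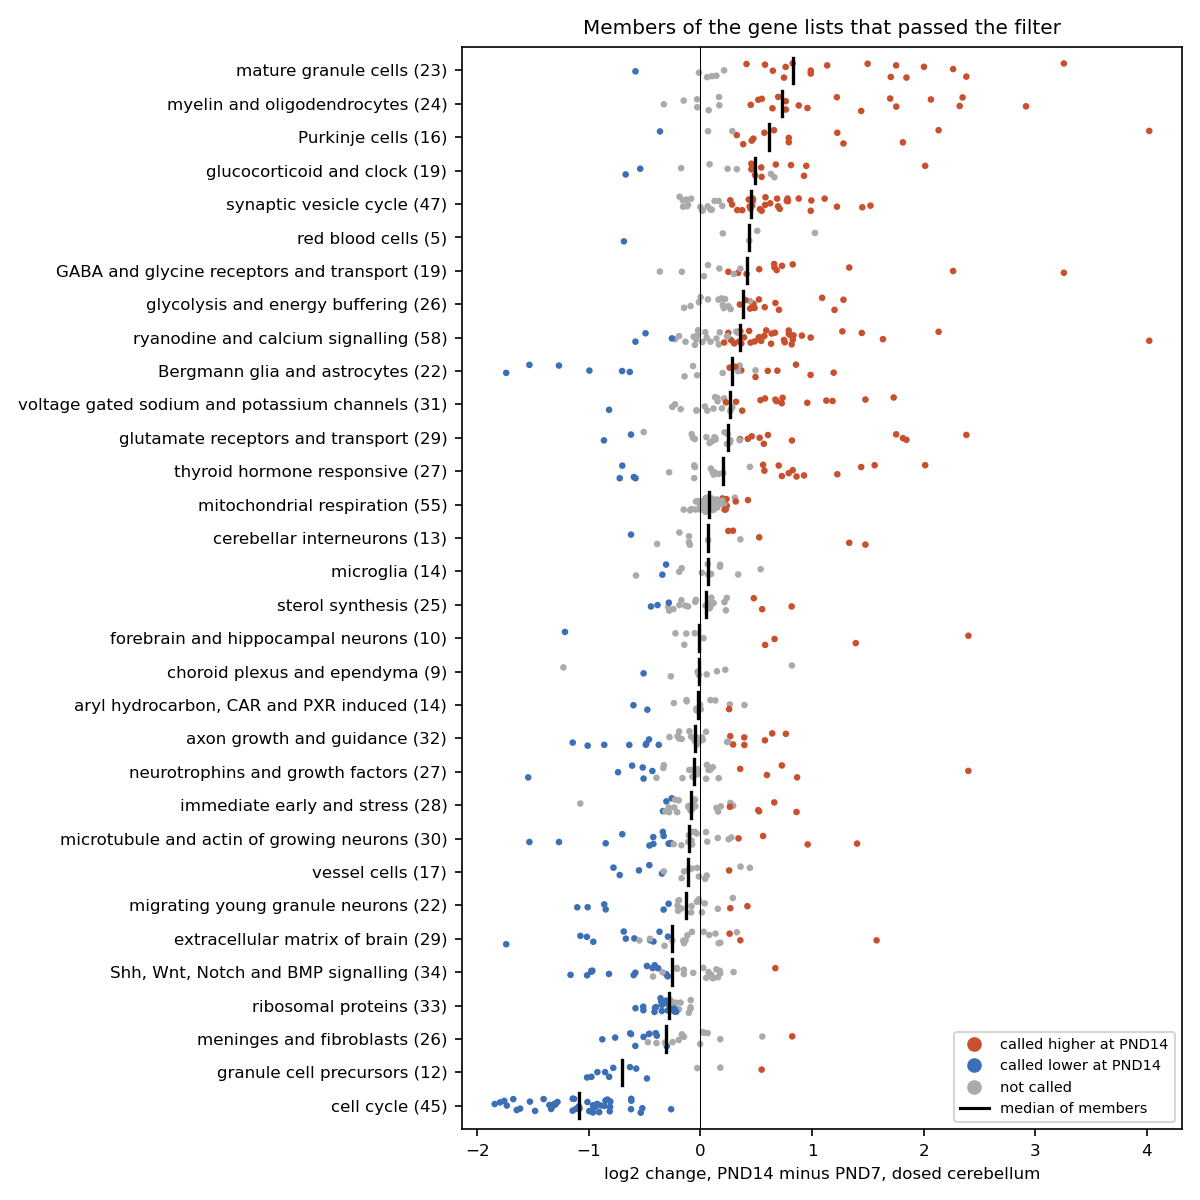
Log2 change from PND7 to PND14 in dosed cerebellum (x axis) of every member that passed the filter in each of 32 gene lists (y axis, with the number that passed), coloured by its call. Black bars are medians; cell cycle genes lie at -1.09 and mature granule cell genes at 0.83.

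Genes of glia moved in both directions. Of 22 genes of Bergmann glia and astrocytes, 9 were called higher (40.9%, beside 14.6% of all genes) and 6 lower (27.3%, beside 17.7%). The median was 0.29. Nes (nestin) and Vim (vimentin), filament proteins of radial and immature glia, changed by -1.53 ± 0.08 (SE, adjusted p = 1.25e-06) and -1.27 ± 0.13 (SE, adjusted p = 2.57e-05). Nes was at 9.10, 9.20 and 9.23 at PND7 and 7.60, 7.63 and 7.71 at PND14, with tight replicates and no overlap. Among the rises were Aqp4, the water channel of astrocyte endfeet (0.69 ± 0.14, adjusted p = 0.00338), and Atp1b2, a subunit of the glial sodium pump (1.19 ± 0.08, adjusted p = 2.74e-06). Gfap, the astrocyte filament, was at 10.80, 11.06 and 10.87 and then 11.47, 11.13 and 11.62 and rose by 0.49 ± 0.16 (SE, adjusted p = 0.0388). Its adjusted p was 0.0607 with dam as a block, and its call was lost without PND14 of dam 12 or 18 or PND7 of dam 12 or 18. Slc1a3, the glutamate transporter of Bergmann glia, changed by -0.07 ± 0.08 and was not called. The count of rises was 5 without the PND7 pup of dam 18.

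Myelin genes rose. Of 24 that passed, 17 were called higher (70.8%, beside 14.6% of all genes) and 0 lower (beside 17.7%), with a median of 0.73. Quantile normalization, or leaving out the PND14 pup of dam 15, gave 1 lower. Mbp, myelin basic protein, was at 11.75, 11.59 and 11.46 at PND7 and 13.18, 12.95 and 12.99 at PND14 and rose by 1.44 ± 0.18 (SE, adjusted p = 0.000114). Mag, an adhesion protein of the inner myelin wrap, went from 8.25, 8.00 and 7.91 to 10.31, 9.95 and 10.10 and rose by 2.07 ± 0.17 (SE, adjusted p = 7.27e-06). Mal, a lipid raft protein of myelin, went from 6.65, 6.71 and 6.67 to 8.95, 9.04 and 9.02, with a rise of 2.32 ± 0.13 (SE, adjusted p = 1.95e-06). Mog, on the outer surface of myelin, went from 5.60, 5.45 and 5.57 to 8.25, 7.29 and 8.12 and rose by 2.35 ± 0.20 (SE, adjusted p = 1e-05). The ages were fully apart in each of these genes, and in 17 of the 24 listed, beside 41.0% of all probe sets tested. Pdgfra and Cspg4, which mark oligodendrocyte precursors, changed by -0.33 and -0.03 and were not called (named after their values were seen).

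Synaptic vesicle genes rose in 30 of 47 cases (63.8%, beside 14.6% of all genes), with 0 called lower (beside 17.7%) and a median of 0.45. Unc13c, a priming factor of granule cell terminals, was at 7.72, 7.53 and 7.43 at PND7 and 9.42, 8.59 and 9.25 at PND14 and rose by 1.52 ± 0.18 (SE, adjusted p = 8.14e-05). Syt4, a synaptotagmin, went from 9.02, 8.87 and 9.13 to 10.37, 10.53 and 10.47 and rose by 1.45 ± 0.10 (SE, adjusted p = 3.52e-06). Vamp1, a vesicle fusion protein, rose by 1.22 ± 0.11 and Dnm3, a dynamin, by 1.11 ± 0.12. The ages did not overlap in these 4 genes, and in 31 of the 47 listed, beside 41.0% of all probe sets tested. Other probe sets of Vamp1 gave 0.97, called higher, and 0.07 (adjusted p = 0.667), not called.

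Calcium signalling is of interest here because some polychlorinated biphenyls act on ryanodine receptors, the calcium release channels of the endoplasmic reticulum. Of 58 genes of ryanodine and calcium signalling that passed, 34 were called higher (58.6%, beside 14.6% of all genes) and 3 lower (5.17%, beside 17.7%). The median was 0.35. Ryr2 was at 6.29, 6.38 and 6.65 at PND7 and 7.45, 7.25 and 7.36 at PND14 and rose by 0.91 ± 0.13 (SE, adjusted p = 0.00032). Ryr1, the form of Purkinje cells, changed by 0.95 from 5.71, 5.61 and 5.86 to 6.50, 6.63 and 6.90, without a test because it did not pass the filter. Itpr1, the inositol trisphosphate receptor that Purkinje cells hold in abundance, rose by 0.79 ± 0.10 (SE, adjusted p = 0.000131). The plasma membrane pump Atp2b3 rose by 1.64 ± 0.15 (SE, adjusted p = 1.6e-05), and Hpcal1, a calcium sensor, by 1.45 ± 0.18 (SE, adjusted p = 0.000127). All 3 PND14 pups exceeded all 3 PND7 pups for Ryr2, Itpr1, Atp2b3 and Hpcal1. Over the list 39 of 58 did not overlap in either direction, beside 41.0% of all probe sets tested.

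Of 31 sodium and potassium channel genes, 14 were called higher (45.2%, beside 14.6% of all genes) and 1 lower (3.23%, beside 17.7%). The median was 0.27. Kcna1, the axonal channel Kv1.1, was at 7.94, 7.96 and 8.15 at PND7 and 9.86, 9.54 and 9.85 at PND14 and rose by 1.73 ± 0.12 (SE, adjusted p = 2.74e-06). Kcnk1, a leak channel, rose by 1.13 ± 0.13, and the sodium channels Scn1a and Scn2a by 0.96 ± 0.15 and 1.18 ± 0.19. The gene called lower was Scn3a, the sodium channel of immature neurons (-0.82, named after its value was seen).

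Glycolysis genes rose in 13 of 26 cases, with 0 called lower and a median of 0.38. Eno2, the neuronal enolase, was at 9.48, 9.30 and 9.35 at PND7 and 10.71, 10.48 and 10.55 at PND14 and rose by 1.20 ± 0.09 (SE, adjusted p = 4.7e-06). Ckmt1, mitochondrial creatine kinase, rose by 1.09 ± 0.14 (SE, adjusted p = 0.000126) and Pfkp, a phosphofructokinase, by 0.70 ± 0.09 (SE, adjusted p = 0.000115). The 55 genes of mitochondrial respiration had a median change of 0.08, with 8 called higher (14.5%, beside 14.6% of all genes) and 0 lower. That count was 2 with dam as a block, 17 without the PND14 pup of dam 15, and 1 to 4 without any other of the 6 arrays. Ribosomal protein genes were lower at PND14. Of 33 that passed, 23 were called lower (69.7%, beside 17.7% of all genes) and 0 higher (beside 14.6%). The median was -0.29 and the range -0.58 to -0.09. Rpl12 was at 11.63, 11.62 and 11.60 at PND7 and 10.95, 11.13 and 11.02 at PND14, a change of -0.58 ± 0.07 (SE, adjusted p = 0.000131). The count of falls was 13 without the PND14 pup of dam 18 and 15 without the PND7 pup of dam 15.

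Thyroid hormone responsive genes matter here because polychlorinated biphenyls can lower circulating thyroxine. Of 27 that passed, 12 were called higher (44.4%, beside 14.6% of all genes) and 4 lower (14.8%, beside 17.7%), with a median of 0.20. Klf9, a zinc finger factor under direct control of thyroid hormone, was at 8.42, 8.26 and 8.43 at PND7 and 10.52, 10.27 and 10.37 at PND14 and rose by 2.01 ± 0.12 (SE, adjusted p = 1.95e-06). Hr, the corepressor hairless, went from 6.77, 6.94 and 6.84 to 8.95, 7.54 and 8.75 and rose by 1.56 ± 0.27 (SE, adjusted p = 0.00102), with the pup of dam 15 the lowest at PND14. The neurotrophin Ntf3 rose by 0.73 ± 0.15 (SE, adjusted p = 0.00267). Reln, the guidance protein reelin of granule cells, and Thra, the receptor itself, changed by 0.16 ± 0.09 and 0.20 ± 0.13 and were not called. Thrb and Bdnf did not pass the filter. Of the falls, 2 were called without the PND7 pup of dam 15 or 18.

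Genes induced through the aryl hydrocarbon receptor, CAR and PXR, the sensors of foreign chemicals, had a median change of -0.02. Of 14 that passed, 1 was called higher (7.14%, beside 14.6% of all genes, and 0 with dam as a block) and 2 lower (14.3%, beside 17.7%). Txnrd1, a thioredoxin reductase, was at 10.15, 10.04 and 10.15 at PND7 and 9.51, 9.55 and 9.49 at PND14 and fell by 0.60 ± 0.07 (adjusted p = 8.01e-05). Gstm1, a glutathione transferase, changed by -0.48 ± 0.15 (SE, adjusted p = 0.0325), a call that was lost without any of 5 of the arrays, all but PND14 of dam 15. The transporter Slco1a4 rose by 0.26 ± 0.08 (SE, adjusted p = 0.0294), with an adjusted p of 0.0584 with dam as a block, and was not called without 4 of the 6 arrays. Cyp1b1, the cytochrome P450 of this pathway outside the liver, was at 7.86, 7.73 and 7.64 and then 7.29, 8.00 and 7.57, a change of -0.12 ± 0.15 (adjusted p = 0.564). It fell by 0.31 (adjusted p = 0.0346) without the PND14 pup of dam 15, and 5 genes of the list were then called lower. Cyp1a1, the classic target of the aryl hydrocarbon receptor, did not pass the filter and changed by 0.07 (named after its value was seen).

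Of 32 genes of axon growth and guidance, 7 were called higher (21.9%, beside 14.6% of all genes) and 8 lower (25.0%, beside 17.7%), with a median of -0.05. Epha4, a guidance receptor, was at 8.64, 8.60 and 8.39 at PND7 and 7.22, 7.47 and 7.50 at PND14 and changed by -1.14 ± 0.10 (SE, adjusted p = 1.15e-05). Nfasc, neurofascin of the axon initial segment, rose by 0.77 ± 0.11 (SE, adjusted p = 0.000381). Another Nfasc probe set that was tested, at 0.05 (adjusted p = 0.637), was not called. Of 30 cytoskeleton genes of growing neurons, 12 were called lower and 4 higher (median -0.11), and Tuba4a, an alpha tubulin of mature neurons, rose by 1.40 ± 0.16 (SE, adjusted p = 6.69e-05). Map2, a dendritic protein, changed by -0.10 ± 0.14 and was not called. In the brain's extracellular matrix 11 of 29 were called lower (37.9%, beside 17.7% of all genes) and 3 higher (10.3%, beside 14.6%), with a median of -0.25. Gpc2 and Gpc3, glypicans of the growing brain, changed by -1.02 ± 0.10 (SE, adjusted p = 1.97e-05) and -1.08 ± 0.18 (SE, adjusted p = 0.00087), whereas the proteoglycan Spock1 rose by 1.58 ± 0.12 (SE, adjusted p = 4.7e-06). Among 27 neurotrophin and growth factor genes, 5 were called higher (18.5%, beside 14.6% of all genes) and 6 lower (22.2%, beside 17.7%). Both shares are near those of all genes, and the median was -0.06. Ngfr, the p75 neurotrophin receptor, was at 8.67, 8.92 and 8.95 and then 7.33, 7.29 and 7.29 and changed by -1.54 ± 0.10 (SE, adjusted p = 2.74e-06). Ntrk3, the receptor of neurotrophin 3, rose by 0.87 ± 0.10, and Igf1 changed by -0.74 ± 0.12.

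Markers of the meninges, vessels, choroid plexus, blood and microglia, which the dissected tissue can also hold, gave mixed results. For meninges and fibroblasts, 10 of 26 were called lower (38.5%, beside 17.7% of all genes) and 1 higher (3.85%, beside 14.6%), with a median of -0.31. The mean level of the 29 listed genes on the array was 8.60 to 8.94 on the PND7 arrays and 8.24 to 8.70 at PND14, where dam 12 was lowest. Col3a1, a collagen of the meninges, changed by -0.88 ± 0.19 (SE, adjusted p = 0.00359), and Col1a2 by -0.63 ± 0.21 (SE, adjusted p = 0.0412). The adjusted p of Col1a2 was 0.0667 with dam as a block, and its call was lost without PND14 or PND7 of dam 12 or PND7 of dam 15. The count of falls was 6 and 5 without PND14 and PND7 of dam 12. The part of the meninges in the falls of matrix genes was not tested.

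For vessel cells, 5 of 17 were called lower (29.4%, beside 17.7% of all genes) and 1 higher (5.88%, beside 14.6%), with a median of -0.11. There were 0 higher when dam was a block, and the falls numbered 2 without any one of the PND7 pups. Kdr, the VEGF receptor of endothelium, was at 9.34, 9.08 and 9.18 at PND7 and 8.52, 8.45 and 8.29 at PND14 and changed by -0.78 ± 0.09 (SE, adjusted p = 6.88e-05). For microglia 2 of 14 were called lower (14.3%, beside 17.7% of all genes) and 0 higher (median 0.07). Their mean level was 6.84 to 7.09 on the PND7 arrays and 6.76 to 7.30 on the PND14 arrays. The falls ranged from 0 to 5 with 1 array left out, while the block gave 1 higher. For choroid plexus and ependyma 1 of 9 was called lower (11.1%, beside 17.7% of all genes) and 0 higher. The fall lost its call when any one of the 6 arrays but PND14 of dam 18 was left out, and 1 rise was called without PND14 of dam 12. Ttr, transthyretin of the choroid plexus, was at 12.67, 12.95 and 11.52 at PND7 and 7.02, 13.16 and 13.28 at PND14 and was not called; the PND14 array of dam 12 thus held little of this transcript. For red blood cells 1 of 5 was called lower (20.0%, beside 17.7% of all genes) and 0 higher (2 higher with dam as a block). The beta globin Hbb was at 12.20, 12.64 and 11.91 and then 12.34, 13.63 and 12.31, highest in dam 15 at both ages, with a change of 0.51 ± 0.30 (adjusted p = 0.228, 0.031 with dam as a block). The 3 probe sets shared by the alpha globin genes changed by 0.24 to 0.39 and were not called.

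Clock and glucocorticoid genes rose in 11 of 19 cases (57.9%, beside 14.6% of all genes) and fell in 2 (10.5%, beside 17.7%), with a median of 0.49. Dbp and Nr1d2, parts of the clock, rose by 0.93 ± 0.08 (SE, adjusted p = 1.38e-05) and 0.95 ± 0.11 (SE, adjusted p = 6.48e-05). Hsd11b1, which activates glucocorticoids, was at 7.83, 8.12 and 8.05 at PND7 and 8.67, 9.19 and 8.56 at PND14 and rose by 0.81 ± 0.14 (SE, adjusted p = 0.00117). Falls numbered 4 without the PND14 pup of dam 15. Among 28 immediate early and stress genes 5 were called higher (17.9%, beside 14.6% of all genes) and 3 lower (10.7%, beside 17.7%), with a median of -0.08. The falls ranged from 1 to 5 with 1 array left out. Egr1, an activity-induced factor, was at 7.51, 7.11 and 7.48 and then 7.83, 8.93 and 7.92, with dam 15 the highest, and rose by 0.86 ± 0.24 (SE, adjusted p = 0.0173); it was not called without the PND7 pup of dam 15. Sterol synthesis genes gave 3 higher (12.0%, beside 14.6% of all genes) and 3 lower (12.0%, beside 17.7%) of 25, with a median of 0.05. Without the PND14 pup of dam 15 they gave 9 higher. The falls numbered 1 without any one of the PND7 pups and 5 without the PND14 pup of dam 12. Abcg1, a sterol exporter, rose by 0.82 ± 0.10 (SE, adjusted p = 0.000137). Another Abcg1 probe set that was tested, at 0.24 (adjusted p = 0.128), was not called.

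The PND14 pup of dam 15 differed from its group mates in many of the genes that changed with age. On an axis that runs from 0 at the undosed PND7 mean to 1 at the undosed PND14 mean, the PND14 arrays of dams 12, 15 and 18 lay at 1.02, 0.802 and 0.968, and the dosed PND7 arrays at 0.0713 to 0.116. Of all genes tested, 44.2% were below both mates on this array and 31.9% above both. Of the 52 listed cell cycle genes 45 were below both, with a mean level 0.43 lower. Mature granule cell genes averaged 0.32 lower, but their median was 0.09 lower and 14 of 26 were below both mates. The mean was carried by a few genes, among them Grm4, Gabra6 and Grin2c. Sterol synthesis genes averaged 0.52 lower, with 23 of 26 below both mates, and mitochondrial genes 0.19 lower, with 46 of 55 below both. Red cell genes averaged 0.67 higher, with 9 of 10 above both mates, microglia genes 0.51 higher and glucocorticoid and clock genes 0.37 higher. The PND7 array of dam 15, from another pup, was also above its mates in red cell genes (0.25, 7 of 10 above both). So it was in microglia genes (0.22, 17 of 21 above both, beside 35.6% of all genes), but not in glucocorticoid and clock genes (-0.03). The part of blood and microglia in the other deviations was not tested. The median SD over genes was 0.147 at PND14 and 0.088 at PND7.

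The genes that set the pup of dam 15 apart, chosen after their values were seen, included stress and metabolic genes. Mt2A, a metallothionein, was at 9.12, 11.97 and 9.26 on the PND14 arrays of dams 12, 15 and 18. Alox15, a lipoxygenase, was at 8.99, 11.77 and 9.18, and Alas2, the haem enzyme of red cells, at 8.31, 10.97 and 8.33. Txnip, an arrestin that glucose regulates, Hmox1, haem oxygenase 1, and Igfbp3, a binding protein of insulin-like growth factors, lay 1.91, 1.89 and 1.90 above the mean of the mates. In the hippocampus array of dam 15 at PND14 the same 6 genes lay 1.17 to 1.88 above their mates, so the deviation had the same direction in both tissues. Among the low genes, Grm4, Olfm3 and Gabra6 lay 1.99, 1.52 and 1.46 below the mates in cerebellum, and 0.17, 0.23 and 0.16 below in hippocampus. Other low genes were further below the mates in hippocampus as well. The deviations in cerebellum and hippocampus were -1.33 and -1.12 for Tnc, -1.40 and -0.795 for Cyp51, and -1.39 and -0.775 for Grin2c. Without this array limma called 3481 probe sets, 1697 higher and 1784 lower.

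**Figure D3:**
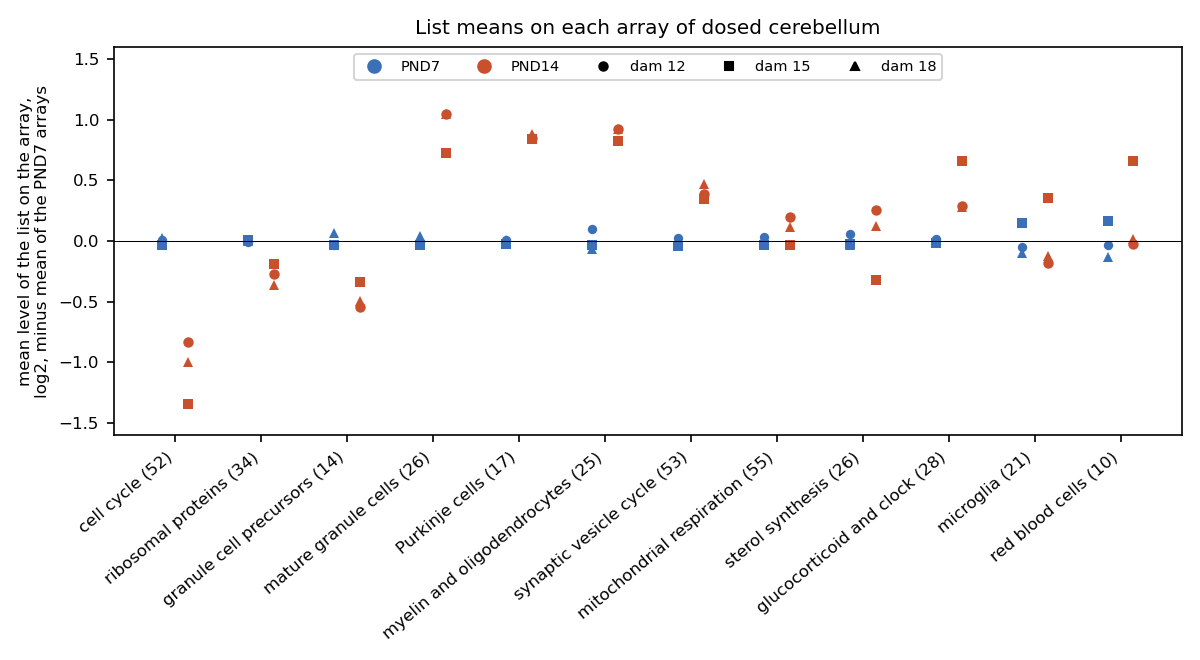
Mean log2 level of 12 gene lists (x axis, with the number of genes on the array) on each dosed cerebellum array, as the difference from the mean of the 3 PND7 arrays (y axis). Blue is PND7, red is PND14, and symbols are dams; the PND14 square of dam 15 is lowest for cell cycle genes and highest for red blood cell genes.

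Against undosed pups, the change with age in dosed cerebellum gave 0 called probe sets of 9868 (0%) for the difference between the changes. By limma 528 had an unadjusted p under 0.05, beside 493 expected by chance, and the fit with dam as a block also called 0. Over 9868 probe sets the dosed and undosed changes had a Pearson r of 0.869, given as a description with no p since probe sets share arrays and are not independent. The slope of the dosed on the undosed change was 0.835, and the SDs of the changes were 0.396 and 0.412. Noise in the undosed changes lowers such a slope, so it does not measure a smaller change in dosed pups. The undosed side of this comparison rests on 2 arrays at PND14. Leaving out the 2 undosed arrays of high Xist kept only the array of dam 7 for undosed PND14. A fit on so few arrays can hardly call a difference and cannot decide the part of those 2 arrays. The median difference over probe sets was then -0.02, against -0.03. Leaving out the PND14 dosed pup of dam 12 gave 0 called and 1394 at an unadjusted p under 0.05.

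For single genes the change in undosed pups and the 95% interval of the difference (not adjusted for the number of genes) show the sizes that remain possible. Pvalb rose by 4.02 in dosed and 4.04 in undosed pups, a difference of -0.02 with an interval of -0.59 to 0.55. Gabra6 rose by 3.26 and 3.96, a difference of -0.70 with an interval of -1.70 to 0.30. For Klf9 the difference was 0.05 (-0.35 to 0.44), for Mbp -0.29 (-0.87 to 0.30) and for Hr -0.32 (-1.20 to 0.56). None of these differences was called, and each of the last 3 genes belongs to the thyroid hormone responsive list. Over 142 named genes 13 intervals left out 0, among them those of Hbb (1.44, 0.44 to 2.43), Spock1 (-0.58, -0.97 to -0.18) and Cks2, with 0 of them called. The 13 also hold Rbpj, Arih1, Bzw1, Atp1b2 and Purb, which were picked for the smallest p of this same difference. Their intervals had to leave out 0, so the count is no sign of an excess. Over all probe sets, 528 of 9868 had an unadjusted limma p under 0.05. For the 5 red blood cell genes that passed, the median change was 0.44 in dosed pups (0.10 without the PND14 pup of dam 15) and -0.80 in undosed pups, and 0 of these differences were called. For the cell cycle list the median change was -1.09 in dosed and -0.78 in undosed pups, and 0 of 45 differences were called. Cks2 changed by -1.84 and -0.89, a difference of -0.95 ± 0.38 (adjusted p = 0.842), and by -1.48 in dosed pups without dam 15 at PND14.

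The genes closest to a difference between dosing groups by unadjusted p were Rbpj, Arih1, Bzw1, Atp1b2 and Purb, none of them called. Rbpj, the DNA-binding partner of Notch, changed by -0.50 in dosed and 0.08 in undosed pups, a difference of -0.58 ± 0.11 (limma adjusted p = 0.601). Arih1, a ubiquitin ligase, changed by -0.23 and 0.60 (-0.82 ± 0.16), and Bzw1, a translation regulator, by -0.41 and 0.06 (-0.47 ± 0.10). Another Bzw1 probe set changed by -0.01 in dosed pups. Atp1b2 rose by 1.19 in dosed and 1.73 in undosed pups (-0.54 ± 0.12), and Purb, a DNA- and RNA-binding protein, rose by 0.79 and 1.35 (-0.56 ± 0.13). The smallest adjusted p, 0.0916, was that of a probe set of Lig3, a DNA ligase, with a difference of -0.82 ± 0.11. That probe set is not the one that represents Lig3, which gave -0.02, and with 23 arrays in the fit it was the 1 probe set called (adjusted p = 0.0382).

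**Figure D4:**
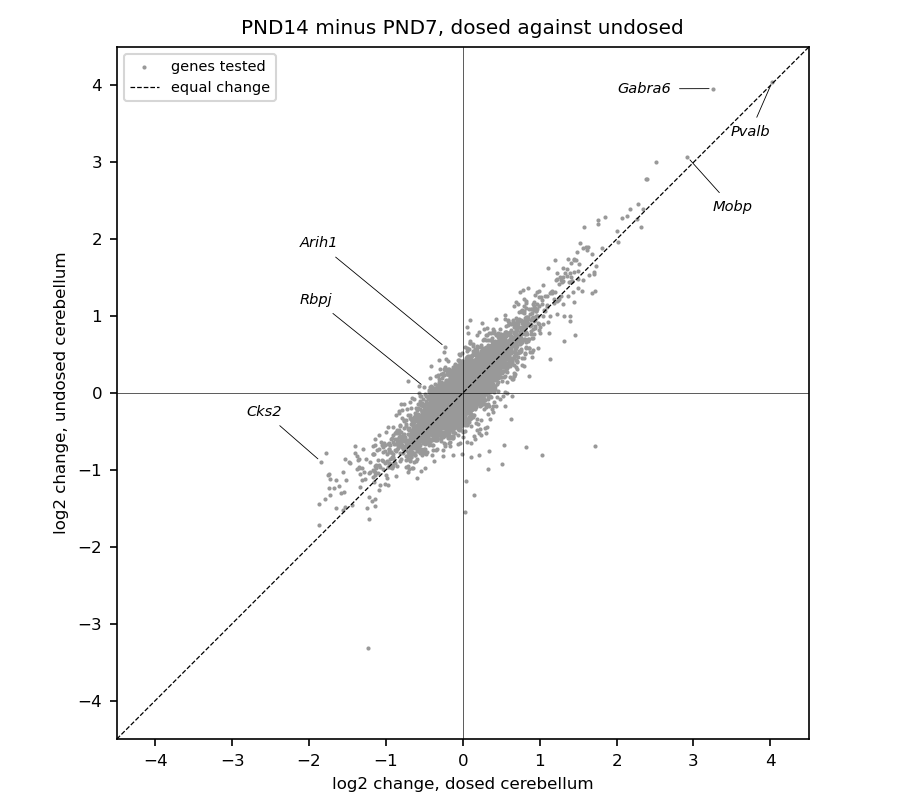
Log2 change from PND7 to PND14 of each gene tested in dosed cerebellum (x axis, 3 against 3 pups) and in undosed cerebellum (y axis, 2 pups at PND14 and 3 at PND7). The dashed line marks equal change; most genes lie near it and no difference was called.

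Against the hippocampus of dosed pups, limma called a different change with age for 612 of 10110 probe sets (6.05%), 305 higher and 307 lower in cerebellum. Of genes that had also passed the filter for the age change in cerebellum, it called 434 of 7116 (6.10%). With the pup as a block, since both tissues came from the litter and age of the same dam, it called 1049, of which 487 were higher and 562 lower. The count was 325, 380 and 365 without the PND7 cerebellum of dam 12, 15 or 18, and 310 and 373 without the PND14 hippocampus of dam 12 or 18. The changes in the 2 tissues had a Pearson r of 0.575 over 9777 probe sets, as a description. Granule and Purkinje cell genes led the differences toward cerebellum. Gabra6 rose by 3.26 in cerebellum and changed by -0.21 in hippocampus, a difference of 3.47 ± 0.41 (adjusted p = 0.00041). Pvalb rose by 4.02 and 1.47, a difference of 2.55 ± 0.32 (adjusted p = 0.000571). Syt4 rose by 1.45 in cerebellum and changed by -0.94 in hippocampus, a difference of 2.39 ± 0.20 (adjusted p = 3.3e-05). Slc1a6 and Atp2a3 differed by 2.34 ± 0.15 and 2.29 ± 0.24. Of 23 mature granule cell genes 13 differed between tissues, and of 45 cell cycle genes 17.

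Other genes changed more in hippocampus. Mbp rose by 1.44 in cerebellum and 3.32 in hippocampus, a difference of -1.88 ± 0.40 (adjusted p = 0.0138), whereas Mobp rose by 2.92 and 2.98, with a difference of -0.06 ± 0.58 that was not called. Fibcd1, a chitin-binding receptor that marks hippocampal neurons, changed by -1.21 and 1.32, a difference of -2.54 ± 0.25 (adjusted p = 0.000124). Wfs1, a protein of the endoplasmic reticulum, changed by 0.03 and 1.92 (-1.89 ± 0.36). Wipf3, an actin regulator, and Cracdl did not pass the filter in cerebellum and differed by -2.30 ± 0.18 and -1.78 ± 0.20. They entered the tissue fit through its hippocampus arrays. Wipf3 was at 6.71 and then 6.69 in dosed cerebellum, so its difference rests on the change in hippocampus. Dcx changed by -0.17 in cerebellum and -1.55 in hippocampus, a difference of 1.38 ± 0.21 (adjusted p = 0.0019). Some genes moved in the same direction in both tissues. Tnc changed by -1.74 and -2.22, Klf9 by 2.01 and 1.48, Rpl12 by -0.58 and -0.56 and Gpc2 by -1.02 and -1.27, and none of these differences was called. In ribosomal proteins 0 of 33 and in mitochondrial respiration 0 of 55 differed, and in myelin 1 of 24, beside 6.10% of all genes. At that share, lists of this size would hold few calls. On the PND14 hippocampus array of dam 15, myelin genes averaged 0.90 below the mates, with 21 of 25 below both, beside 41.3% of all genes. This array enters the comparisons of Mbp, Mobp and the myelin list.

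**Figure D5:**
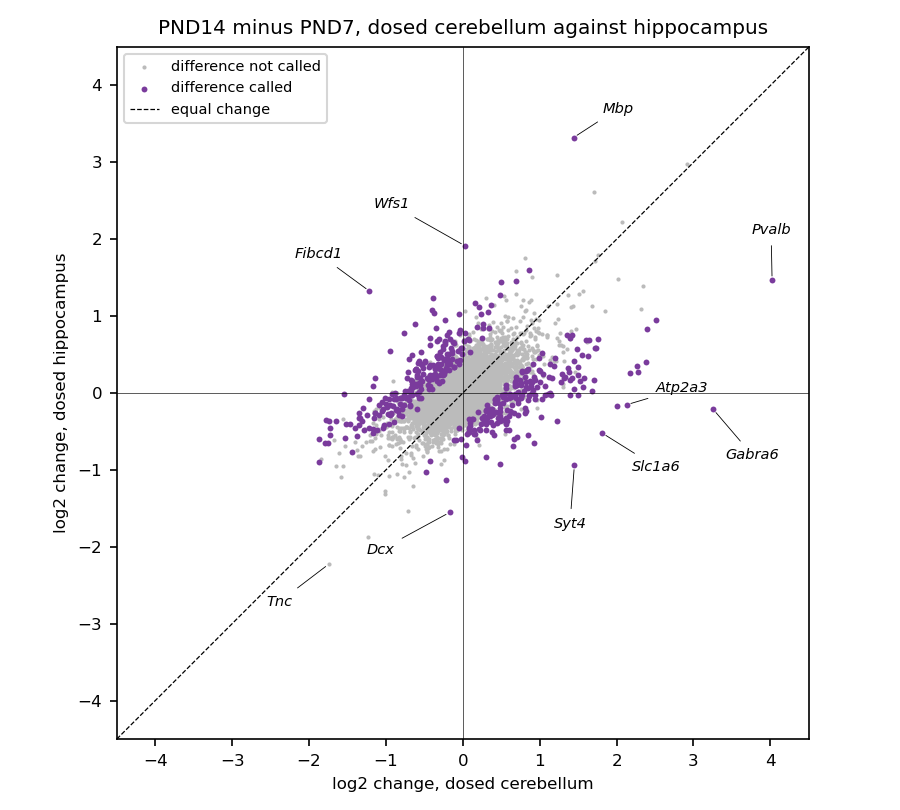
Log2 change from PND7 to PND14 of each gene tested in dosed cerebellum (x axis) and dosed hippocampus (y axis), with genes whose difference was called in purple. Gabra6 and Pvalb lie far to the right of the dashed line of equal change and Mbp above it.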

How the data were processed

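Expression was measured on 24 Affymetrix arrays with 3 arrays in each of 8 groups of tissue, age and dose. The deposited values are log2 expression values per probe set, 1 column per array; the software, background correction and normalization were not given in the sources used here. Each array was hybridised with RNA from 1 pup per litter, per the labels' protocols. Control probe sets (57 of 15923) were set aside. Gene symbols came from the platform annotation, which gave 12783 probe sets 1 symbol, 312 several and 2771 none; genes were named only from the first. Genes are represented by their probe set of highest mean. Values were used as deposited.

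Probe sets above the 40th percentile on at least 3 arrays were fitted with limma 3.58.1 (R 4.3.3), with 1 mean per group. Cerebellum changes used 11 arrays (residual spread shared by 4 groups) and the tissue comparison the 12 dosed arrays. Calls have a Benjamini-Hochberg adjusted p under 0.05 over all probe sets tested. The fit was tested on simulated data. The number of arrays limits precision. Named genes include the 12 largest rises and falls among called genes whose ages did not overlap, and a fixed set. Up to 4 called members of each list were named by size of change. Named too are 5 genes of smallest p for the dosing difference and 5 genes in each direction of the tissue difference. The members and the 32 lists were chosen with earlier results of these data known. The replicate number is that of the dam, per the labels, so numbers pair littermates across ages; deviations from the group means correlated at 0.20, 0.16 and 0.0075 for dams 12, 15 and 18. Alternatives changed the normalization, filter, variance prior, block, arrays and probe set. 1 undosed PND14 cerebellum array was left out as it stood apart.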

Additional observations from a re-analysis of the deposited data

Results flagged for a closer look

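Of the genes whose change from PND7 to PND14 in dosed pups differed between cerebellum and hippocampus by the limma test of the difference itself, these are the 5 with the largest difference in each direction. It was larger in cerebellum for Gabra6 (3.47 on the log2 scale), Pvalb (2.55), Syt4 (2.39), Slc1a6 (2.34) and Atp2a3 (2.29), which act in inhibition, calcium handling, vesicle fusion and glutamate uptake. It was lower in cerebellum for Fibcd1 (-2.54), Wipf3 (-2.30), Wfs1 (-1.89), Mbp (-1.88) and Cracdl (-1.78). Wipf3 and Cracdl were too low in cerebellum to be tested for the age change alone, and entered the test of the difference through hippocampus arrays. For Mbp another probe set rose by 2.18 in cerebellum, against 1.44 for the probe set that represents the gene.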

How the results depend on the processing

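Every named gene called in the age change kept its sign under the alternatives run, whereas Cntn2, Grin2b, Slc1a3, Cyp1b1 and Ttr, which were not called, changed sign under at least 1. Falls outnumbered rises (1651 against 1503), but not without PND14 of dam 18 (1418 against 1448), without PND7 of dam 12 (1264 against 1265), with 6 arrays (1097 against 1111) or with the array of dam 13. The 3154 calls became 3246 with quantile normalization, 3431 with no filter, 2605 with the stricter filter and 3180 with an intensity trend. They were 1771 (879 higher, 892 lower) with 24 quantile normalized arrays and 498 (324 higher, 174 lower) with the array of dam 13 included, where 65.1% of calls were rises against 47.7%. Leaving out 1 of the 6 arrays gave 2405 to 3481, 1177 to 1697 higher and 1228 to 1799 lower. With the dam as a replicate block 2822 were called, and beyond the genes and lists where a blocked value is given, Ndufa4 and Sdha lost their calls (adjusted p = 0.0719 and 0.0686) and the block changed no other call of a named gene. The 6 arrays with the block (1068 lower), and quantile normalization without the PND14 pup of dam 15 (3600 in all), were chosen after seeing the data. Between dosing groups every alternative that kept 2 or more undosed PND14 arrays called 0, except 23 arrays, which called 1 (lower, Lig3). Leaving out any 1 array outside the undosed PND14 group gave 0. Fits with only 1 undosed PND14 array can hardly call a difference and are not counted here. The tissue difference gave 1049 (487 higher, 562 lower) with the pup as a block, 1235 (580, 655) with 23 arrays, 314 (194, 120) with 24 quantile normalized arrays and 310 to 801 (higher 164 to 390, lower 145 to 411) with 1 array left out. Among named genes, 121 values over all settings lost a call and 5 gained one, with a further 51 and 3 when an array was left out. The number of arrays limits what small changes could be called.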
